A study of Canis lupus familiaris with 45 samples.

Results

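Of the 23836 probe sets of the dog array that are not controls, 110 carried a single gene symbol of a nuclear-coded subunit of the mitochondrial respiratory chain or of ATP synthase, or a symbol of the same name family. They were chosen by symbol alone: names that start with NDUF, UQCR or ATP5, or with COX and a number from 4 to 8, and the names CYC1 and SDHA to SDHD. They stood for 60 of the 6540 genes named by a single symbol on the array. Of the 110, 56 probe sets (29 genes) belonged to complex I, 5 (3 genes) to complex II, 14 (7 genes) to complex III, 8 (7 genes) to complex IV and 16 (8 genes) to complex V, the ATP synthase. The name families also brought in 9 probe sets of 5 complex I assembly factors (NDUFAF genes) and 2 of ATP5IF1, the protein that inhibits ATP synthase when it would run backwards, none of which are subunits. NDUFA4, named for complex I but now known as a subunit of complex IV, and COX7A2L, which joins complexes III and IV into larger assemblies, were counted with complex IV. Another 4 probe sets fitted the names but carried a second symbol and were not members.

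The dogs were male and age-matched, and all tissue was transmural left ventricle. Heart failure was induced by pacing the right ventricle at 240 pulses per minute. The Day-0 dogs were unpaced controls; the Day-3, Week-1 and Week-2 dogs were paced for 3 days, 1 week and 2 weeks, and the End-stage dogs for 3 to 4 weeks. Each of the 5 groups held 3 dogs, and RNA was isolated 3 times from each dog's tissue, which gave 45 arrays. The labels name no drug and do not say whether the Day-0 dogs were operated on.

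Complexes I to IV pass electrons from NADH and succinate to oxygen; complexes I, III and IV use the energy to pump protons out of the mitochondrial matrix, and complex V makes ATP as the protons flow back. The heart depends on this pathway for nearly all of its ATP. Core subunits of every complex except complex II are coded by mitochondrial DNA, so the genes measured here are the nuclear part, whose messages are made in the nucleus and whose products are imported.

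Values are linear MAS5 signals, a brightness per probe set that the authors scaled on each array; tests used the mean log2 signal of each dog's 3 arrays, and n is 3 dogs per group. The median signal per array ran from 33.3 to 48.6. Of the 110 probe sets, 96 (57 genes) passed the filter on low signal, a mean signal of 22.8, and were tested among 14302. The 14 others had mean signals of 2.87 to 22.5; they included every probe set of NDUFC1, COX4I2 and COX6A2, and the rest were further probe sets of tested genes. For the members the median SD was 0.15 between isolations of a dog and 0.17 between dogs of a group on the log2 scale, so that a difference between 2 groups had a median SE of 0.15. Over all tested probe sets the corresponding values were 0.31, 0.27 and 0.22. By closest match, 41 of 45 arrays lay with their own dog. The other 4 came from the dogs numbered 1 at Week-1 and End-stage, which matched each other and were kept under their labels. Every array of these dogs had a negative correlation with an array of its own dog, the lowest at r = -0.394. The cause was not tested.

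In all 4 paced groups most members lay somewhat lower than in the unpaced dogs, and no single member passed the test. The median change of the 96 members was -0.21 at Day-3, -0.23 at Week-1, -0.20 at Week-2 and -0.20 at End-stage on the log2 scale, between 12.7% and 14.7% less signal. The medians over all tested probe sets were 0.004, -0.03, -0.01 and -0.03. The estimate was below 0 for 83, 85, 84 and 86 of the 96 members, and for 49.2%, 54.6%, 50.8% and 54.3% of all tested probe sets. In all 4 comparisons together, 75 of the 96 members (78.1%) had every estimate below 0, against 26.6% of all tested probe sets. All 4 comparisons use the same 3 Day-0 dogs. Single dogs set part of the size: the Week-2 median was -0.31 without Day-0 dog 1, and the End-stage median was -0.12 without End-stage dog 1. With the dogs numbered 1 at Week-1 and End-stage both left out, the Week-1 median was -0.16 and the End-stage median -0.12.

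No member passed an adjusted p of 0.05 in limma. The count was 0 of 96 at Day-3 (0% of all tested probe sets passed), 0 at Week-1 (0.028%), 0 at Week-2 (0.0839%) and 0 at End-stage (0.014%). It was also 0 of 96 for the mean of the 4 paced groups against Day-0, called the paced mean from here on (0.301%), and 0 of 96 for any difference among the 5 groups (0%), where 12 members had an unadjusted p under 0.05 (7.37%). Without adjustment, members with a p under 0.05 and a lower signal numbered 22 at Day-3 (4.35% of all tested probe sets), 28 at Week-1 (5.1%), 24 at Week-2 (6.14%) and 22 at End-stage (4.53%), and members with a higher one 0, 1, 0 and 1 (3.72%, 3.9%, 5.03% and 3.7%). For the paced mean, 36 of 96 members had such a p and were lower (6.32% of all tested probe sets) and 1 was higher (5.37%). At Day-3, 27 of the 96 members had every paced dog below every Day-0 dog, where 6.44% of all tested probe sets did; the counts were 28 at Week-1 (9.4%), 27 at Week-2 (9.21%) and 22 at End-stage (7.94%). All 12 paced dogs lay below all 3 Day-0 dogs for 13 of the 96 members and for 1.61% of all tested probe sets. These 13 probe sets were of NDUFAB1, NDUFA9, NDUFS3 (2 of 4 tested probe sets), NDUFS4, NDUFV2, NDUFB10, NDUFB5, NDUFB8, SDHC, SDHD, UQCRC1 and ATP5F1C. Of the 13, 9 belonged to complex I, which held 48 of the 96 tested members. Such shares were higher among bright probe sets, those with a mean log2 signal of 11 or more. For the paced mean, 28 of 53 bright members had an unadjusted p under 0.05 and were lower. Of all bright probe sets 14.5% did. All 12 paced dogs lay below all 3 Day-0 dogs for 11 of the 53 bright members and for 4.28% of all bright probe sets. In bulk tissue such as this, fewer cells of a type and less RNA per cell cannot be told apart.

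**Figure D1:**
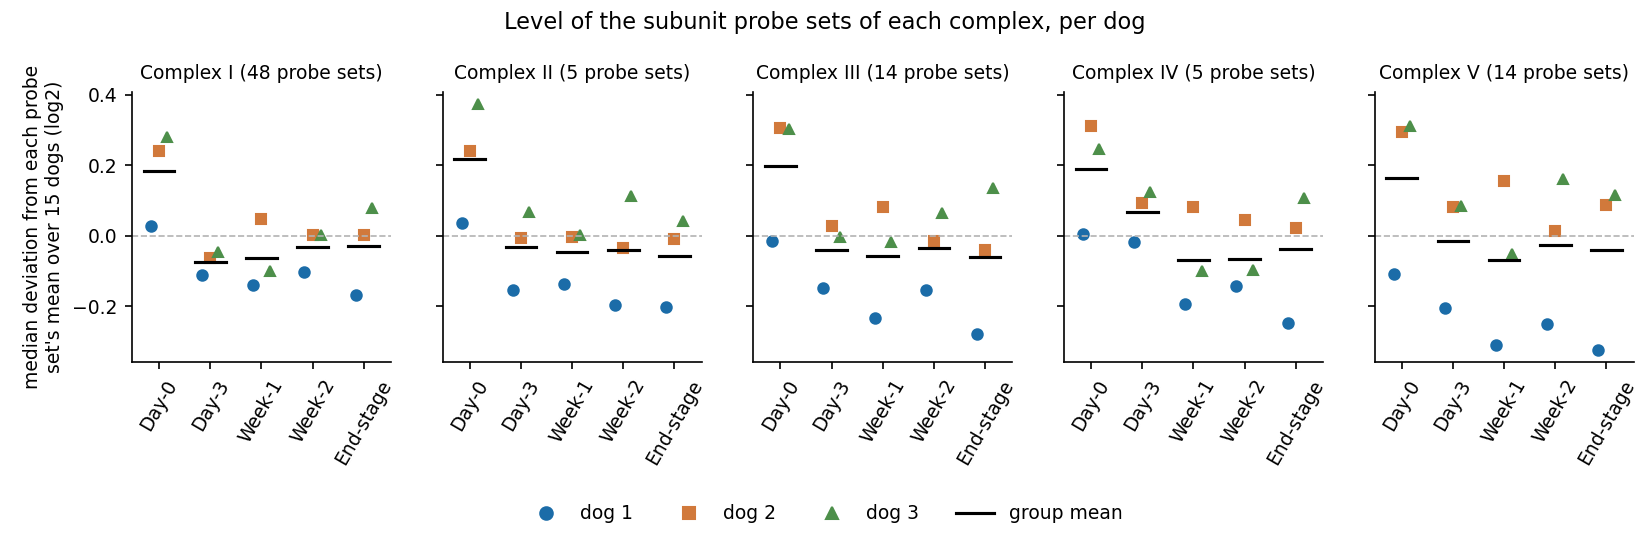
Level of each complex in each dog, as the median over its tested probe sets of the log2 signal minus that probe set's mean over the 15 dogs. Points are dogs, coloured by dog number, and bars are group means. Dog 1 lies lowest in every group and complex, and the Day-0 dogs 2 and 3 lie highest. The means of the 4 paced groups lie close together in complexes I, II and III. In complex IV, with 5 probe sets, the Day-3 mean (0.07) is above those of the other 3 paced groups (-0.07, -0.07 and -0.04). The SD between dogs in complex IV was 0.076 at Day-3, 0.139 at Week-1, 0.097 at Week-2 and 0.185 at End-stage.

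The 28 tested genes of complex I, which takes electrons from NADH, were all lower in the paced mean than at Day-0 when each was read from its brightest probe set, with a median of -0.26 (log2). The change was below 0 in all 28 at Day-3, Week-1 and Week-2, and in 27 at End-stage, where NDUFS5 was at 0.01. The other complexes are given below over all their tested probe sets. On that measure complex I had a paced mean median of -0.22, with 41 of 48 probe sets below 0. In the matrix arm, where NADH is oxidised, the median over 25 probe sets was -0.23. In the membrane arm, which moves the protons, it was -0.20 over 21 probe sets.

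NDUFV2, an iron-sulfur subunit beside the NADH site, had the lowest estimate of these genes. NDUFV2 signals in dogs 1 to 3 were 3952, 5213 and 4747 at Day-0, 3687, 3190 and 3071 at Day-3, 2930, 3389 and 3268 at Week-1, 2883, 3330 and 3774 at Week-2 and 2993, 3071 and 3708 at End-stage. All 12 paced dogs were below the lowest Day-0 dog, and Day-3, Week-1, Week-2 and End-stage dogs overlapped one another. NDUFV2 was 1.41-fold lower than Day-0 in the paced mean (log2 -0.50, SE 0.11, adjusted p = 0.0711), with changes of -0.48, -0.53, -0.48 and -0.51 at the 4 stages.

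NDUFS4, an accessory subunit whose loss causes Leigh syndrome in people, had the smallest adjusted p of any member at End-stage (0.244) and shared the smallest at Week-2 (0.102) with a probe set of NDUFB8. NDUFS4 signals in dogs 1 to 3 were 2675, 2730 and 2603 at Day-0, 2024, 2238 and 2310 at Day-3, 2027, 2134 and 2092 at Week-1, 1643, 2086 and 2109 at Week-2 and 1958, 2033 and 2061 at End-stage. All 12 paced dogs lay below the 3 Day-0 dogs, which differed little among themselves. The change was -0.29 at Day-3, -0.36 at Week-1, -0.47 at Week-2 and -0.40 at End-stage, and the paced mean was 1.3-fold lower than Day-0 (log2 -0.38, SE 0.09, adjusted p = 0.0727). A dimmer NDUFS4 probe set gave -0.26 (adjusted p = 0.641), with 9 of 12 paced dogs below the lowest Day-0 dog.

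NDUFS3 is a core subunit of the matrix arm. NDUFS3 signals in dogs 1 to 3 were 4455, 5013 and 4616 at Day-0, 3528, 3562 and 3657 at Day-3, 3293, 4029 and 3526 at Week-1, 3712, 3657 and 3664 at Week-2 and 3341, 3823 and 3917 at End-stage. In this probe set the groups did not overlap: the highest paced dog, at Week-1, lay below the lowest Day-0 dog. NDUFS3 was 1.29-fold lower than Day-0 in the paced mean (log2 -0.37, SE 0.09, adjusted p = 0.0792), and a second probe set of the gene gave -0.44 (adjusted p = 0.0711), also without overlap. Of the 2 other NDUFS3 probe sets, one with a mean signal of 647.9 was at -0.12 (adjusted p = 0.896) with 0 of 12 paced dogs below the lowest Day-0 dog, and a dim one was at -0.51 (SE 0.37, adjusted p = 0.694) with 6 of 12.

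NDUFA9 sits where the 2 arms of complex I meet. NDUFA9 signals in dogs 1 to 3 were 2978, 3297 and 3394 at Day-0, 2759, 2315 and 2393 at Day-3, 2369, 2125 and 2102 at Week-1, 2795, 1919 and 2788 at Week-2 and 2382, 1711 and 2955 at End-stage. Every paced dog was below every Day-0 dog, although paced dogs differed widely at Week-2 and End-stage. NDUFA9 was 1.37-fold lower than Day-0 in the paced mean (log2 -0.45, SE 0.15, adjusted p = 0.199). NDUFA5, another accessory subunit of the matrix arm, had a paced mean 1.3-fold lower than Day-0 (log2 -0.38, SE 0.12, adjusted p = 0.163); in 11 of 12 paced dogs it was below the lowest Day-0 dog, and Day-3 dog 2 at 2777 was the exception.

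NDUFS1, the largest iron-sulfur subunit, was lowest at Day-3. NDUFS1 signals in dogs 1 to 3 were 2475, 2785 and 2755 at Day-0, 2339, 1935 and 1541 at Day-3, 2191, 2229 and 2029 at Week-1, 1807, 2231 and 2393 at Week-2 and 2040, 1973 and 2569 at End-stage. Of the paced dogs only End-stage dog 3 was above the lowest Day-0 dog. Its change was -0.48 at Day-3 and -0.29 at End-stage, and the paced mean was 1.28-fold lower than Day-0 (log2 -0.35, SE 0.12, adjusted p = 0.244). NDUFV1, which carries the flavin that first takes the electrons, had a paced mean 1.17-fold lower than Day-0 (log2 -0.23, SE 0.09, adjusted p = 0.335), with 9 of 12 paced dogs below the lowest Day-0 dog.

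NDUFAB1 is the mitochondrial acyl carrier protein, which also sits in both arms of complex I. NDUFAB1 signals in dogs 1 to 3 were 3921, 4760 and 4544 at Day-0, 3054, 3325 and 3374 at Day-3, 2999, 3378 and 3371 at Week-1, 2538, 3248 and 3534 at Week-2 and 2741, 3421 and 3661 at End-stage. All 12 paced dogs lay below the 3 Day-0 dogs, with Week-2 dog 1 the lowest. NDUFAB1 was 1.37-fold lower than Day-0 in the paced mean (log2 -0.46, SE 0.11, adjusted p = 0.0993); a dimmer probe set gave -0.42 (adjusted p = 0.13), with 11 of 12 paced dogs below the lowest Day-0 dog.

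NDUFB5, an accessory subunit of the membrane arm, was lowest at Day-3. NDUFB5 signals in dogs 1 to 3 were 2712, 2803 and 2836 at Day-0, 2070, 1874 and 2206 at Day-3, 2427, 2254 and 2233 at Week-1, 1980, 2427 and 2273 at Week-2 and 2020, 2477 and 2651 at End-stage. The End-stage dogs came closest to the Day-0 dogs. The change was -0.44 at Day-3 and -0.23 at End-stage, and the paced mean was 1.25-fold lower than Day-0 (log2 -0.32, SE 0.10, adjusted p = 0.163). NDUFB10, a further accessory subunit with all 12 paced dogs below the Day-0 dogs, had a paced mean of -0.34 (SE 0.11, adjusted p = 0.207). NDUFS5, NDUFV3 and NDUFA6 were the complex I genes with estimates nearest 0 (paced means of -0.05, -0.11 and -0.11). The 5 assembly factors, which help build complex I and then leave it, had 7 of 8 probe sets below 0 and a median of -0.16. NDUFAF1 was at -0.22 (SE 0.08, adjusted p = 0.263) and NDUFAF2 at 0.10 (SE 0.11, adjusted p = 0.821).

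**Figure D2:**
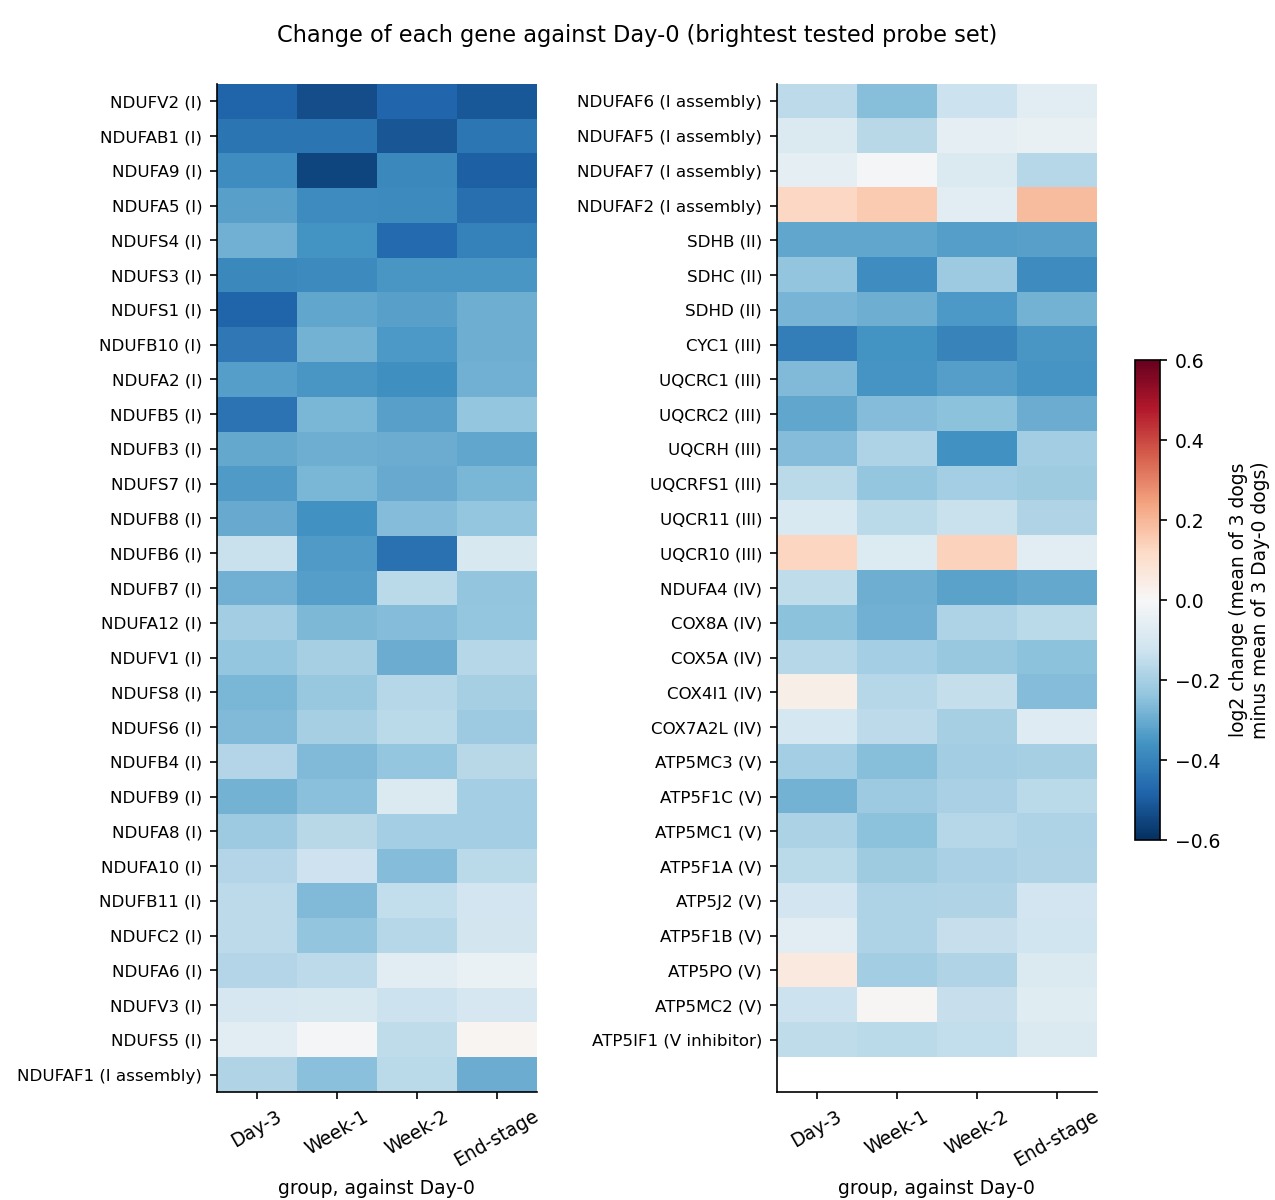
Log2 change of each of the 57 tested genes, from its brightest probe set, in each paced group (mean of 3 dogs) minus Day-0 (mean of 3 dogs). Genes are ordered by complex and, within each, by the mean of the 4 changes. Blue, for lower, covers nearly the whole map, and NDUFV2, NDUFAB1 and NDUFA9 are the darkest.

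Complex II, succinate dehydrogenase, feeds electrons from succinate and is the only complex coded wholly in the nucleus. Its 5 probe sets for SDHB, SDHC and SDHD had the lowest median of the complexes, -0.30 in the paced mean, and all 5 were below 0 at every stage. SDHA had no probe set among the members and was not analysed here. SDHB signals in dogs 1 to 3 were 3524, 4424 and 4457 at Day-0, 3074, 3276 and 3604 at Day-3, 2894, 3502 and 3567 at Week-1, 2908, 3304 and 3648 at Week-2 and 2909, 3245 and 3719 at End-stage. SDHB holds the iron-sulfur clusters. Its changes at the 4 stages were -0.31, -0.31, -0.33 and -0.33, while 4 of 12 paced dogs lay above Day-0 dog 1, the lowest unpaced dog. SDHB was 1.25-fold lower than Day-0 in the paced mean (log2 -0.32, SE 0.11, adjusted p = 0.24).

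SDHC and SDHD anchor the enzyme in the membrane. SDHD signals in dogs 1 to 3 were 3558, 3975 and 3886 at Day-0, 3002, 3023 and 3406 at Day-3, 2989, 3119 and 3222 at Week-1, 2679, 3140 and 3180 at Week-2 and 2797, 3196 and 3401 at End-stage. For SDHD all 12 paced dogs were below the 3 Day-0 dogs. SDHD was 1.23-fold lower than Day-0 in the paced mean (log2 -0.30, SE 0.09, adjusted p = 0.163), while a dim second probe set was at -0.12 (adjusted p = 0.854) with 5 of 12 below the lowest Day-0 dog. For SDHC the Day-0 dogs spread from 3254 to 4971 and overlapped the paced dogs, of which 6 of 12 were below the lowest of them. Its paced mean was 1.23-fold lower than Day-0 (log2 -0.30, SE 0.14, adjusted p = 0.413), and a second SDHC probe set, with all 12 paced dogs below the Day-0 dogs, gave -0.31 (adjusted p = 0.154).

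Complex III hands electrons to cytochrome c. Of its 14 probe sets, 13 were below 0 in the paced mean and the median was -0.22. Of its 7 genes the exception was UQCR10, a small subunit at 0.03 (SE 0.16). UQCR10 was read from a dim probe set, with signals of 184.8 to 344.3 over the 15 dogs. CYC1 signals in dogs 1 to 3 were 4127, 4962 and 5074 at Day-0, 3477, 3469 and 3637 at Day-3, 3274, 3897 and 3857 at Week-1, 3423, 3500 and 3763 at Week-2 and 3436, 3494 and 4183 at End-stage. CYC1, cytochrome c1, carries the electrons out of the complex. In 11 of 12 paced dogs it lay below every Day-0 dog, and End-stage dog 3 was just above Day-0 dog 1. CYC1 was 1.3-fold lower than Day-0 in the paced mean (log2 -0.38, SE 0.10, adjusted p = 0.101).

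UQCRC1 and UQCRC2 are the core proteins of the complex. UQCRC1 signals in dogs 1 to 3 were 4503, 5622 and 5373 at Day-0, 4489, 4106 and 4233 at Day-3, 3670, 4232 and 4194 at Week-1, 4013, 4006 and 4258 at Week-2 and 3813, 3942 and 4323 at End-stage. In this probe set the paced and Day-0 dogs did not overlap, although Day-3 dog 1 lay close below Day-0 dog 1. UQCRC1 was 1.25-fold lower than Day-0 in the paced mean (log2 -0.33, SE 0.09, adjusted p = 0.131). A second UQCRC1 probe set of nearly the same brightness did overlap, with 7 of 12 paced dogs below the lowest Day-0 dog, and gave -0.28 (adjusted p = 0.241). For UQCRC2 the paced mean was 1.21-fold lower than Day-0 (log2 -0.28, SE 0.12, adjusted p = 0.34), with 8 of 12 paced dogs below the lowest Day-0 dog; its other bright probe set gave -0.42 (adjusted p = 0.196) and a dimmer one -0.16 (adjusted p = 0.705).

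UQCRFS1, the Rieske iron-sulfur protein, and UQCRH, the hinge protein, had paced means of -0.20 (SE 0.13, adjusted p = 0.624) and -0.26 (SE 0.16, adjusted p = 0.614). For each, 4 of 12 paced dogs were below the lowest Day-0 dog, so that the groups overlapped. UQCR11 was at -0.14 (SE 0.11).

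Complex IV, cytochrome c oxidase, reduces oxygen. It was the least completely measured complex: 5 of 7 genes were tested, COX4I1, COX5A, COX8A, NDUFA4 and COX7A2L. Both probe sets of COX6A2, the heart and muscle form of subunit 6A, had mean signals of 4.48 and 7.73 and did not pass the filter, and COX4I2, the form of subunit 4 known from lung, was just under it at 22.5. The pair of isoforms COX4I1 and COX4I2 could therefore not be compared, and COX6A1, COX7A1, COX7A2 and COX8B, the other genes of heart isoform pairs, were not among the members.

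The 5 tested probe sets of complex IV had a median of -0.21 in the paced mean. Of the 5, 0 had an unadjusted limma p under 0.05, where 1672 of all 14302 tested probe sets did. A count from 5 probe sets does not set complex IV apart. COX5A signals in dogs 1 to 3 were 7350, 10180 and 10360 at Day-0, 6983, 8703 and 8899 at Day-3, 6497, 9279 and 8372 at Week-1, 6309, 8407 and 9074 at Week-2 and 6284, 8384 and 8789 at End-stage. COX5A is an accessory subunit on the matrix side. Dog 1 was the lowest dog of every group, and each paced group overlapped Day-0. Its paced mean was 1.16-fold lower than Day-0 (log2 -0.21, SE 0.16, adjusted p = 0.694).

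NDUFA4 signals in dogs 1 to 3 were 6124, 7505 and 7254 at Day-0, 5106, 7251 and 6563 at Day-3, 4940, 6325 and 5794 at Week-1, 5008, 6057 and 5660 at Week-2 and 4643, 6067 and 6277 at End-stage. For NDUFA4 8 of 12 paced dogs lay below the lowest Day-0 dog; the Week-2 dogs were all below it, and the other 3 paced groups overlapped Day-0. Its paced mean was 1.2-fold lower than Day-0 (log2 -0.27, SE 0.13, adjusted p = 0.452). COX8A, a small subunit, had a paced mean 1.17-fold lower than Day-0 (log2 -0.22, SE 0.11, adjusted p = 0.452). For COX4I1, a regulatory subunit, signals were low, from 54.7 to 82.5 over the 15 dogs. Its change ran from 0.03 at Day-3 to -0.26 at End-stage, with a paced mean of -0.14 (SE 0.13, adjusted p = 0.805), and the Day-3 estimate changed sign under other settings.

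Complex V, the ATP synthase, consists of the catalytic F1 head and the membrane-bound Fo part with its stalks. All 14 probe sets of its 8 genes were below 0 in the paced mean, with a median of -0.21, -0.22 over the 8 of F1 and -0.17 over the 6 of Fo and the stalks. Read from the brightest probe set of each gene, the median was -0.17. Of the 8, 0 had an unadjusted limma p under 0.05 at any stage. Over all 14302 tested probe sets, 1154 did at Day-3, 1287 at Week-1, 1597 at Week-2 and 1177 at End-stage. A count from 8 probe sets does not set complex V apart.

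ATP5F1B, the beta subunit that forms ATP, had the estimate nearest 0 of the 3 F1 genes when each was read from its brightest probe set. ATP5F1B signals in dogs 1 to 3 were 7271, 9929 and 10120 at Day-0, 7177, 9794 and 8990 at Day-3, 6668, 9411 and 7922 at Week-1, 6902, 8391 and 9491 at Week-2 and 6706, 9346 and 9063 at End-stage. Within each group dog 1 was the lowest, and the groups overlapped throughout: only 4 of 12 paced dogs, all of them numbered 1, lay below the lowest Day-0 dog. ATP5F1B was 1.09-fold lower than Day-0 in the paced mean (log2 -0.13, SE 0.15, adjusted p = 0.858), and its sign turned under quantile normalisation. Its Day-3 and End-stage estimates also changed sign when single dogs were left out, for example to 0.059 without Day-3 dog 1 and to 0.031 without End-stage dog 1. ATP5F1A signals in dogs 1 to 3 were 6747, 9554 and 9388 at Day-0, 6448, 8346 and 8032 at Day-3, 6110, 8682 and 7314 at Week-1, 6101, 7660 and 8661 at Week-2 and 6054, 8412 and 8165 at End-stage. In this probe set ATP5F1A, the alpha subunit, also had dog 1 lowest in every group. Its paced mean was 1.14-fold lower than Day-0 (log2 -0.19, SE 0.15, adjusted p = 0.739). Over the 4 tested probe sets of ATP5F1A the paced mean ran from -0.395 to -0.123. The one at -0.395 did not have dog 1 lowest at Day-0.

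ATP5F1C, the gamma subunit that turns inside the head, had a paced mean 1.16-fold lower than Day-0 (log2 -0.21, SE 0.14, adjusted p = 0.647) in its brightest probe set. Another bright one gave -0.26 (adjusted p = 0.47), each of them with 5 of 12 paced dogs below the lowest Day-0 dog. A dimmer one gave -0.43 (adjusted p = 0.128) and had all 12 below, so the size of the ATP5F1C difference depended on the probe set. ATP5MC1 and ATP5MC3 code for the same mature subunit of the rotating c-ring, and had paced means of -0.20 (SE 0.15) and -0.22 (SE 0.16), each with 4 of 12 paced dogs below the lowest Day-0 dog. ATP5PO, the subunit that ties the outer stalk to F1, was at -0.10 (SE 0.17) and the inhibitor ATP5IF1 at -0.14 (SE 0.10).

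**Figure D3:**
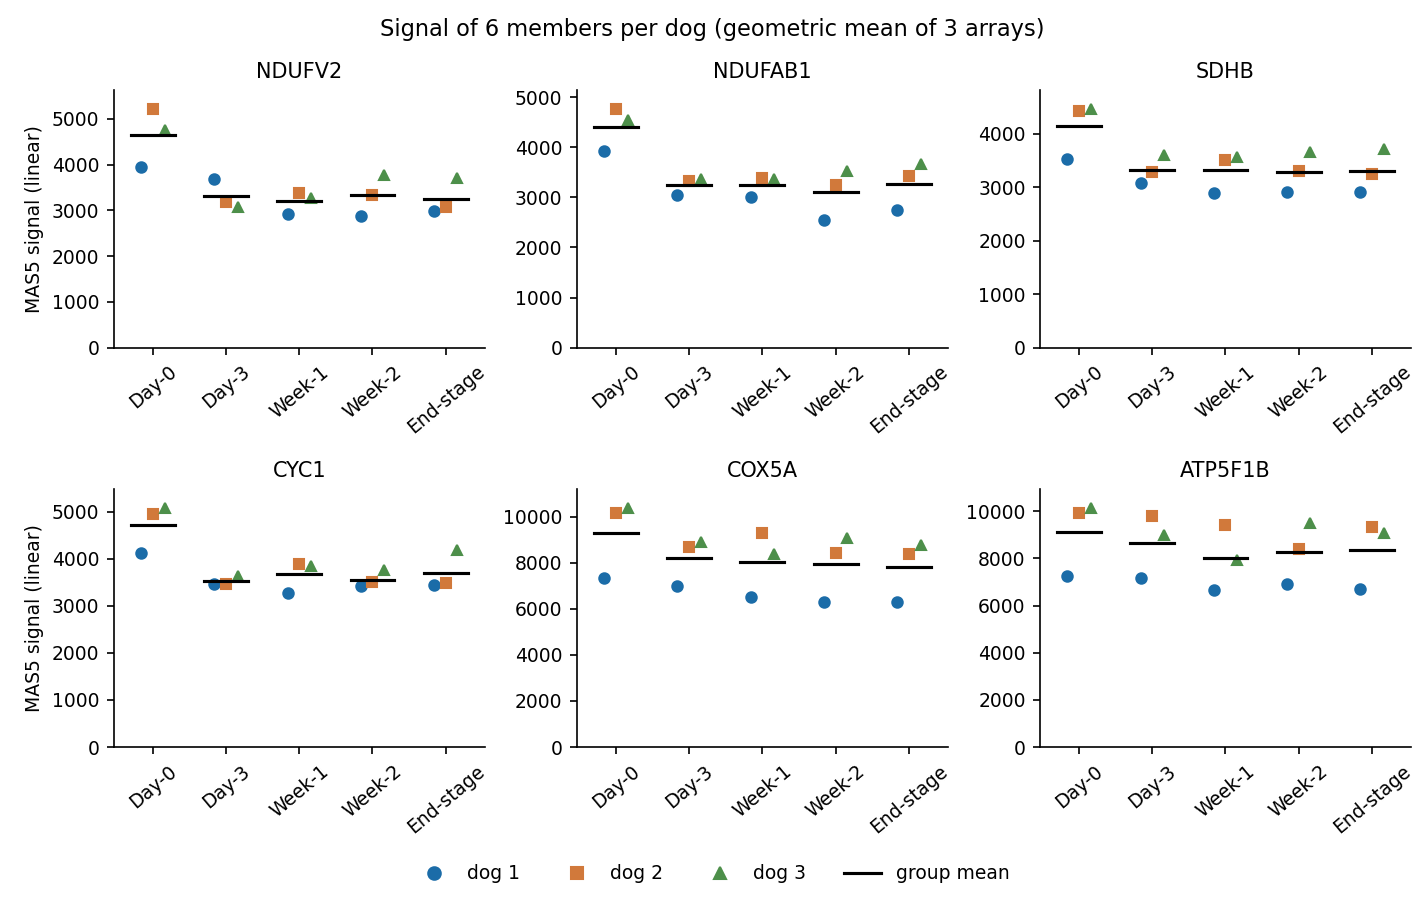
Linear MAS5 signal of 6 members in each dog (geometric mean of 3 arrays); bars are the arithmetic mean of the 3 dogs. NDUFV2 and NDUFAB1 have all 12 paced dogs below the Day-0 dogs, CYC1 has 11, SDHB has 8, and COX5A and ATP5F1B have 4, the dogs numbered 1.

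Between consecutive paced groups the members stayed close to 0. The median change was -0.01 from Day-3 to Week-1, 0.01 from Week-1 to Week-2 and 0.01 from Week-2 to End-stage, and 51, 43 and 45 of the 96 members were below 0. In limma 0 members passed in any of these 3 comparisons (0% of all tested probe sets passed in each), and 1, 1 and 2 of the 96 had an unadjusted p under 0.05 (4.82%, 5.78% and 4.2% of all tested probe sets). The smallest adjusted p among the members was 0.994, 0.768 and 0.999, in a fit that did not pair dogs by number. For a member the range of its 4 changes against Day-0 had a median of 0.14, against 0.31 over all tested probe sets; for probe sets of a mean log2 signal of 11 or more the medians were 0.10 and 0.13. By complex, the medians at Day-3 were already -0.24 for complex I, -0.28 for II, -0.23 for III, -0.15 for IV and -0.20 for V, and at End-stage -0.20, -0.33, -0.21, -0.25 and -0.18. The differences between complexes were not tested, since their probe sets share the same dogs.

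The estimates varied with how bright a probe set was. Among the members, the 53 with a mean log2 signal of 11 or more had a median of -0.25 in the paced mean and were all below 0. The 19 between 8 and 11 had a median of -0.17, and the 24 under 8 had -0.07, with 15 below 0. Bright probe sets as a whole also lay lower: over the 537 tested probe sets of 11 or more the median was -0.08 and 68.2% were below 0, while those of 8 to 11 and under 8 had medians of -0.003 and -0.02. Within the bright class, 51 of 53 members (96.2%) had all 4 stages below 0, against 52.7% of all bright probe sets.

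**Figure D4:**
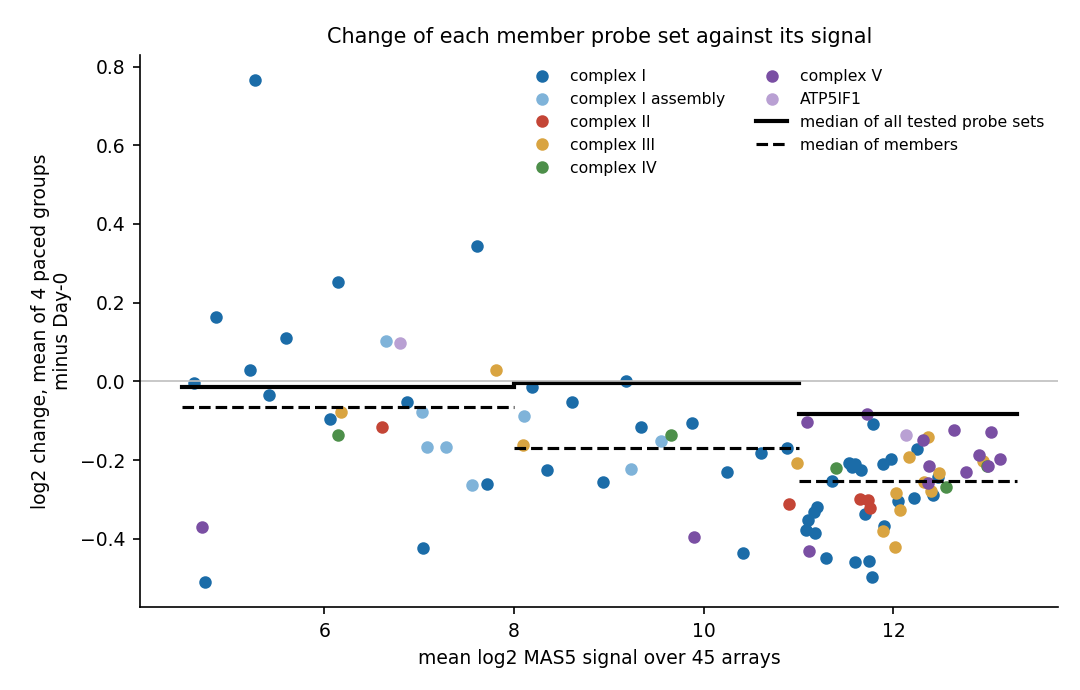
Paced mean minus Day-0 (log2) of each of the 96 tested member probe sets against its mean log2 signal; colours give the complex. Lines give the median of the members (dashed) and of all tested probe sets (solid) in 3 signal classes. Members lie mostly below the solid lines on the right, and scatter around 0 among dim probe sets on the left.

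Probe sets of the same gene did not always give the same answer. Of the 24 genes with several tested probe sets, 7 had estimates of both signs in the paced mean: ATP5IF1, NDUFA6, NDUFA8, NDUFB8, NDUFS7, NDUFV1 and NDUFV3. NDUFB8, an accessory subunit of the membrane arm, had probe sets that lay far apart. One of its bright probe sets had the smallest adjusted p of all members (paced mean -0.46, adjusted p = 0.0563) and another lay at -0.29 (adjusted p = 0.332), while a dim one with a mean signal of 38.5 was at 0.77 (adjusted p = 0.384), the highest of all members. NDUFB5 had 3 further probe sets within 0.014 of 0 beside the bright one described above. Probe sets whose names end in _s_at or _x_at can also bind related transcripts. The 37 members of that kind had a median of -0.22, and the 59 with plain names had -0.21.

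The dogs of a group also differed among themselves, and the dog numbered 1 stood out. Taking each member's deviation from its mean over the 15 dogs, the median over the 96 members was 0.01, 0.25 and 0.28 in Day-0 dogs 1, 2 and 3. It was -0.12, -0.003 and -0.02 at Day-3, -0.16, 0.07 and -0.06 at Week-1, -0.15, 0.01 and 0.04 at Week-2, and -0.20, 0.00 and 0.10 at End-stage. Dog 1 was the lowest dog of all 5 groups, and Day-0 dog 1 lay within the range of the paced dogs numbered 2 and 3. Day-0 dog 1 was the lowest Day-0 dog for 77 of the 96 members, dog 2 for 11 and dog 3 for 8. Set against the Day-0 dog of the same number, the 4 paced dogs had a median member change of -0.15 for number 1, -0.23 for number 2 and -0.25 for number 3, with 78, 83 and 88 of 96 members below 0. Over all 14302 tested probe sets the medians were 0.009, -0.074 and -0.008, with 6974, 8436 and 7300 below 0. The labels do not say that dogs sharing a number shared anything else.

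Markers of ventricular muscle cells were likewise lowest in dog 1 of every group. Of 10 such genes 8 had a tested probe set (MYH7, MYL2, MYL3, TNNI3, TNNT2, ACTC1, RYR2 and ATP2A2), with mean log2 signals of 10.96 to 13.51, so that the tissue carried the defining markers of its label. All 8 were below 0 in the paced mean, from -0.47 for the calcium release channel RYR2 to -0.10 for TNNI3, with a median of -0.17, and 0 passed the test. Their deviations per dog were -0.24, 0.34 and 0.33 at Day-0, -0.26, 0.16 and 0.13 at Day-3, -0.35, 0.18 and -0.05 at Week-1, -0.35, 0.00 and 0.21 at Week-2, and -0.35, 0.14 and 0.11 at End-stage. Their summed signal ran from 58340 to 87440 in Day-0 dogs and from 54150 to 80010 in paced dogs. The 5 tested fibroblast markers of 8 listed had a median of 0.36, with a summed signal, over 6 genes with a probe set, of 7535 to 10750 at Day-0 and 7210 to 12880 in paced dogs. Macrophage markers had a median of 0.23 (8 of 9 with a probe set, summed signal 553.8 to 731.5 at Day-0 and 526.3 to 1052 in paced dogs). Endothelial markers had a median of -0.22 (5 of 8, summed signal 5211 to 6122 and 4470 to 6307), and smooth muscle and pericyte markers -0.33 (5 of 8, 6369 to 8239 and 5102 to 8288). The 2 of 4 atrial muscle markers had a median of -0.50 (3170 to 3931 and 1510 to 3806). The lymphocyte marker CD3E was at -0.08 (2 of 5 with a probe set, 60.8 to 116 and 62.2 to 110.3) and the fat cell marker ADIPOQ at 0.73 with an SE of 0.87 (2 of 4, 44.1 to 89.1 and 27.3 to 413.2). None of 3 red cell markers had a probe set, and 0 genes of any of these lists passed the test. The part of these cell types in the lower member signals was not tested.

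Of the control probe sets for RNA quality, the GAPDH ratio of 3-prime to 5-prime signal per dog was 0.932 to 0.983 at Day-0 and 0.881 to 1.02 in the paced dogs. The actin ratio was 0.227, 0.121 and 0.136 in Day-0 dogs 1, 2 and 3, and 0.123 to 0.267 in paced dogs. In every dog the 5-prime actin signal was thus brighter than the 3-prime one. The 5-prime actin probe set has a name ending in _s_at, so the actin ratio was not read as RNA quality. The dogs with the 3 lowest actin ratios, Day-0 dogs 2 and 3 and Week-1 dog 2, also had 3 of the 4 highest member levels. The part of this ratio in the result was not tested.

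**Figure D5:**
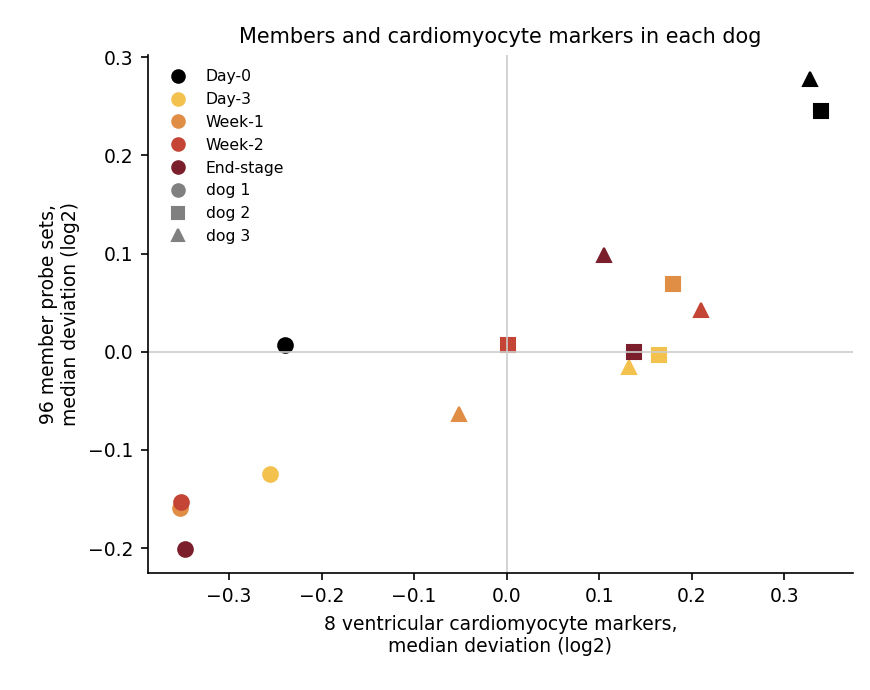
Median deviation (log2) of the 96 member probe sets in each dog against that of the 8 ventricular muscle markers; colour gives the group and shape the dog number. The 5 dogs numbered 1 lie on the left. Among them the Day-0 dog is the highest for the members (0.01 against -0.20 to -0.12) and for the markers (-0.24 against -0.35 to -0.26).

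Other genes of the pathway were followed beside the subunits. CYCS, cytochrome c, had changes of -0.47, -0.33, -0.38 and -0.37 at the 4 stages and a paced mean of -0.39 (SE 0.12, adjusted p = 0.16). Among the carriers that exchange ATP for ADP across the inner membrane, SLC25A4, the heart form, was at -0.22 (SE 0.17, adjusted p = 0.724), SLC25A5 at -0.45 (SE 0.10, adjusted p = 0.0711) and SLC25A6 at 0.07 (SE 0.12). CKMT2, the mitochondrial creatine kinase of muscle, was at -0.32 (SE 0.15). Of these carriers, channels and CKMT2 with CYCS, 7 of 8 were below 0 in the paced mean, with a median of -0.23, and 0 passed the test at any stage. Of 14 tested assembly factors outside the members 12 were below 0, with a median of -0.24 and 0 calls. BCS1L, which inserts the Rieske protein into complex III, was at -0.47 (SE 0.13, adjusted p = 0.139), and TMEM70, which assists ATP synthase, at 0.23 (SE 0.23).

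Of 7 tested regulators of mitochondrial genes, 3 were below 0 in the paced mean and 0 passed. PPARGC1A, a coactivator that drives mitochondrial biogenesis, was at -0.17, -0.27, -0.53 and -0.35 at the 4 stages (paced mean -0.33, SE 0.20, adjusted p = 0.61). TFB2M, a factor for mitochondrial transcription, was at -0.38 (SE 0.11, adjusted p = 0.163), while GABPA, a transcription factor of many respiratory genes, was at 0.06 (SE 0.14) and PPARA, which regulates fatty acid use, at 0.14 (SE 0.14). ESRRA and TFAM had no tested probe set and were not analysed here.

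How many members passed depended on how the arrays were used. With all 45 arrays in the fit and the dog as a random block, 9 of 96 members passed at Day-3 (1.91% of all tested probe sets), 15 at Week-1 (2.64%), 14 at Week-2 (3.38%), 11 at End-stage (2.25%) and 28 in the paced mean (4.9%), where the fit of dog means gave 0. The fit of 45 arrays let the arrays of a dog be correlated, by a single value shared by all probe sets. Its precision was still counted from arrays and not dogs, although the 3 isolations of a dog came from the same tissue. The 28 included NDUFV2, NDUFAB1, NDUFS3, NDUFS4, CYC1, SDHB, SDHD and UQCRC1. After quantile normalisation 4 members passed in the paced mean (0.475% of all tested probe sets), among them NDUFAB1 (-0.38, adjusted p = 0.022) and NDUFS4 (-0.35, adjusted p = 0.0313). The median member change stayed below 0 in each of 29 settings, between -0.29 and -0.15 in the paced mean.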

How the data were processed

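The deposited table gives signal intensity on a linear scale, computed with GCOS 1.4 and MAS5 per the submitters' processing notes. The authors scaled each array: with 2% of probe sets trimmed at each end, the mean signal was 150.02 to 150.026 on every array. Groups, dog numbers and isolation numbers came from the deposited labels, and 77 control probe sets were left out. Symbols came from the array's 2016 annotation; 58 of the 60 member genes were found in the RefSeq gene table of the dog. No genome build is named for the table, so no positions are given, and a planned search of promoter sequences was not run.

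Log2 signals were averaged per dog. Probe sets in the lowest 40% by mean, under a signal of 22.8, were left out. Group means of the 15 dogs were estimated in limma 3.58.1 under R 4.3.3 (lmFit and eBayes, trend = TRUE), and two-sided p values were adjusted by Benjamini-Hochberg over the 14302 probe sets tested, with a threshold of 0.05. Contrasts were each paced group against Day-0, the mean of the 4 paced groups against Day-0, consecutive paced groups, and an F test among the 5 groups. The analysis was tested on simulated data. Sequencing depth does not apply; the number of dogs limits the precision.

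Dogs sharing a number were checked for shared deviations from their group means over probe sets. Week-1 against Day-3 gave a Pearson r of 0.167, 0.296 and 0.318 for its 3 pairs, and End-stage against Week-2 gave 0.23, 0.242 and 0.102, all above the limit of 0.1. From the data and not from the labels, the numbers may pair the dogs of those comparisons. The main fit had no block on the number. With such a block in limma, the smallest adjusted p among the members was 0.713 for Week-1 against Day-3. It was 0.859 for End-stage against Week-2. In no comparison with Day-0 did all 3 pairs pass.

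A gene with several probe sets was read from its brightest. Genes were named where they passed the threshold, where they were among the 4 of a complex with the largest paced mean change, or where they were on a fixed list of core subunits, isoform pairs, regulators and carriers; other genes named in the text were chosen after their values were seen. The members and lists were chosen with earlier results of these data known. Alternatives covered scaling, centring, filters, an offset of 16, the variance prior, the unit of replication, isolations, a block on dog number and leaving out each dog.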

Additional observations from a re-analysis of the deposited data

How the results depend on the processing

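The median member change stayed below 0 in all 29 settings tried for each comparison with Day-0: -0.30 to -0.15 at Day-3, -0.32 to -0.16 at Week-1, -0.31 to -0.14 at Week-2, -0.28 to -0.12 at End-stage and -0.29 to -0.15 for the paced mean. Single dogs moved 2 of these medians by over 1.5 times: Week-2 from -0.20 to -0.31 without Day-0 dog 1, and End-stage from -0.20 to -0.12 without End-stage dog 1. The number of members past the threshold, 0 in each comparison, was not as stable. In the fit of 45 arrays with a random effect per dog it was 9 at Day-3 (1.91% of all tested probe sets passed). There it was 15 at Week-1 (2.64%), 14 at Week-2 (3.38%) and 11 at End-stage (2.25%). For the paced mean it was 28 (4.9%) and for the F test 13 (3.45%). The precision of that fit was counted from arrays and not dogs. Quantile normalisation gave 1 at Week-2 (0.168%) and 4 for the paced mean (0.475%), and leaving out the lowest 60% of probe sets gave 1 for the paced mean (0.85%). Leaving out 1 dog at a time gave 0 to 1 for the paced mean (1 without Day-3 dog 1, where 0.776% of all passed) and 0 in every other comparison. Under a replicate block on the number shared by dogs, 5 members passed at Week-2 (0.615%) and 18 for the paced mean (1.53%). For the comparisons with Day-0 the labels give dogs of the same number nothing else in common. Dog 1 had the lowest member level in all 5 groups. The block changed no other count of members, those between Day-3 and Week-1 and between Week-2 and End-stage included.

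Of the named genes, 2 changed sign under some settings, and none of these values passed the test. The Day-3 change of ATP5F1B became 0.026 with quantile normalisation, 0.008 without isolation 2, 0.001 without Day-0 dog 2, 0.014 without Day-0 dog 3 and 0.059 without Day-3 dog 1; leaving out 1 dog at a time, it ran from -0.224 to 0.059. Its End-stage change became 0.016 with quantile normalisation and 0.031 without End-stage dog 1, also when Week-1 dog 1 was left out with it, and its paced mean became 0.003 with quantile normalisation. The Day-3 change of COX4I1 became -0.021 with median centring and -0.061 without Day-0 dog 3, and ran from -0.061 to 0.091 when 1 dog was left out. The causes were not tested. Dim probe sets limit what can be said of COX4I1, COX4I2, COX6A2 and NDUFC1, and 3 dogs per group limit all comparisons.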
